A study of Homo sapiens with 6 samples.

Results

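A set of 10 genes that are used as markers of stem-like cells in colorectal cancer (CRC) was followed in HCT116 cells, an established human colorectal carcinoma line, after knockdown (KD) of the long noncoding RNA GMDS-AS1. They were taken by symbol from the 60662 genes with a value in each library: CD44, PROM1, ALCAM, CD24, ALDH1A1, ALDH1A3, SOX9, SOX4, KLF5 and BMI1. Both groups were HCT116 cells infected with lentivirus: the shCtrl group carried a nontarget control shRNA and is wild type by its labels, and the KD group carried the second shRNA against GMDS-AS1. Each group had 3 RNA-seq libraries of poly-A selected RNA, which the labels call biological replicates. Only 1 shRNA in 1 cell line was sequenced, so an effect of that hairpin on other transcripts and an effect of losing GMDS-AS1 cannot be told apart. The sources do not say whether the replicates were separate infections, and the p-values therefore measure only the spread between these libraries.

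Stem-like tumor cells are defined by function, namely the capacity to found a new tumor or sphere, and the genes named here are read as proxies for that state. CD44, PROM1 (CD133), ALCAM (CD166) and CD24 are membrane proteins that antibodies detect on living cells. ALDH1A1 and ALDH1A3 are cytosolic enzymes that oxidize retinaldehyde to retinoic acid and contribute to the aldehyde dehydrogenase activity by which such cells are sorted. SOX9, SOX4 and KLF5 are transcription factors of the crypt epithelium and its tumors, and BMI1 is a subunit of polycomb repressive complex 1, which keeps chromatin silent. RNA levels of bulk cultures do not show how many cells carry a marker: fewer cells with the RNA and less RNA per cell cannot be told apart here.

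The study designed qPCR primers for 3 of these markers, and they are shown, 5′ to 3′, because their sequences fix which gene each marker name refers to.
H-CD44-F: cacgtggaatacacctgcaa
H-CD44-R: gacaagttttggtggcacg
H-CD133-F: gcgtgatttcccagaagata
H-CD133-R: ccccaggacacagcatagaa
H-ALDH1-F: tactcaccgatttgaagatt
H-ALDH1-R: ttgtcaacatcctccttatc

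Matched to GENCODE v29 transcripts on GRCh38, the CD44 primers lie in exons 1 and 2 of CD44, with the oligo named R in the sense of the transcript (chr11:35139307-35139325) and the oligo named F in antisense (chr11:35176596-35176615). The CD133 primers match PROM1, the first across the junction of exons 2 and 3 and the second in exon 5 (chr4:16033465-16033484). The primers named ALDH1 match ALDH1A1 transcripts on chromosome 9 and no ALDH1A3 transcript. As described below, ALDH1A1 was at or near 0 in all 6 libraries while ALDH1A3 was among the most abundant of the 10 genes.

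The deposited values are TPM, an expression unit that accounts for transcript length and the size of the library, and they add up to 991058.5 to 992992.1 per library. The read totals cannot be recovered from TPM, and the depth is therefore unknown. The targeted gene, listed as GMDS-DT, had 1.66, 2.21 and 1.34 TPM in shCtrl and 0.88, 0.91 and 0.79 TPM in KD libraries (log2 fold change -0.41, SE 0.137, adjusted p = 0.0407, limma). The shRNA sequence matches 2 of the 16 annotated transcripts of GMDS-DT, and the gene value does not separate them from the rest. The test covered 16901 genes that reached 0.5 TPM in 3 or more of the libraries. Log2(TPM + 1) was compared with limma after scaling by the trimmed mean of M-values, and p-values were adjusted over all genes tested by the Benjamini-Hochberg procedure. That scaling moved the factors of the KD libraries against those of the shCtrl libraries by -0.248 on the log2 scale, and without it the median log2 fold change of all genes tested moved from -0.002 to -0.2. Values "as deposited" are those without the scaling. All TPM values, with their means, SDs and ratios, are given as deposited. Log2 fold changes carry the scaling unless another setting is named, so they can differ from the change in the TPM means beside them. Of the 7 epithelial identity genes, which check the labelled cell type, 6 were expressed highly enough to be tested and CDH17 was not. The list summed to 9359 to 9813 TPM in shCtrl and 3638 to 3747 TPM in KD, of which KRT8 and KRT18 made up the larger share. At an adjusted p under 0.05, 3 of its genes were lower, 1 was higher and 2 were not called. KRT8 fell from 4426 ± 122 to 1358 ± 29 TPM (SD, n = 3) and KRT18 from 2972 ± 73.1 to 702 ± 12.4 TPM, while EPCAM had 156 ± 13.3 and 149 ± 9.52 TPM and did not pass the test (adjusted p = 0.0758). KRT19 fell from 1769 ± 55.5 to 1242 ± 27.1 TPM (log2 fold change -0.26). CLDN4 had 197 ± 3.18 and 204 ± 1.17 TPM and was called higher with the scaling (0.29, adjusted p = 9.79e-05) but not as deposited (0.05), and CDH1 was not called (0.12, adjusted p = 0.391). Whether the loss of keratin RNA has a part in the marker changes was not tested. The 6 fibroblast markers summed to 10.2 to 15.0 TPM over all libraries, nearly all of it COL1A1, with the other 5 under 1 TPM. The 6 leukocyte markers summed to 7.45 to 9.67 TPM with PTPRC at 0, and all 4 endothelial markers were under 1 TPM.

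Of the 10 markers, 9 passed the filter on low values and 1, ALDH1A1, did not. At an adjusted p under 0.05, 6 of the 9 were lower in GMDS-AS1 KD cells (CD44, CD24, ALDH1A3, SOX9, KLF5 and BMI1), 1 was higher (SOX4) and 2 were not called (PROM1 and ALCAM). Among all genes tested, 54.3% were called, 25.9% lower and 28.5% higher, so a call alone was common in this comparison. CD24 and ALDH1A3 fell by at least 2-fold on the log2(TPM + 1) scale, a size reached by 7.17% of all genes tested in either direction and by 4.24% in the lower direction. As deposited, 7 of the 9 were lower and 1 was higher, where 40.3% and 16.3% of all genes tested were (56.6% in both directions). With upper-quartile scaling the counts of markers were also 7 and 1, where 30.8% and 23.5% of all genes were lower and higher (54.3% in both). The 2 markers past 2-fold stood beside 8.3% of all genes as deposited (6.96% lower) and 7.21% with upper-quartile scaling (5.06% lower). The median log2 fold change of the 9 markers was -0.3 with the scaling and -0.54 as deposited. In TPM as deposited, the libraries of the groups did not overlap for any of the 9, with 8 lower and 1 higher in KD, and this held for 63.7% of all genes tested; 44.9% of all genes tested did not overlap and were lower.

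**Figure D1:**
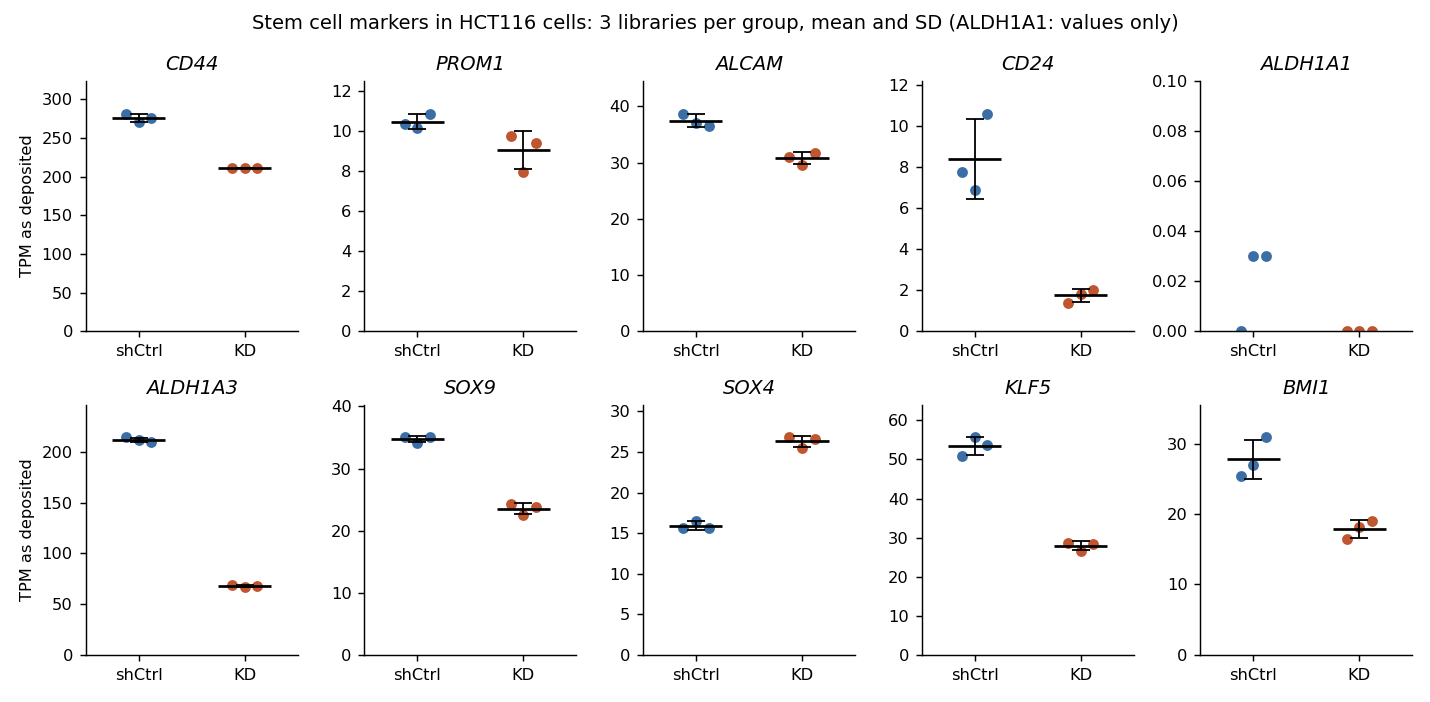
TPM as deposited for each of the 10 markers in the 3 shCtrl (blue) and 3 GMDS-AS1 KD (orange) libraries; points are libraries, and the horizontal line and bars give the mean and SD, except for ALDH1A1, where only the libraries are drawn. Each axis starts at 0 and has its own range, and the KD libraries lie below the shCtrl libraries for 8 of the 9 markers tested and above them for SOX4.

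Since TPM is a value per transcript length, the levels of the markers can be ordered within a group. In shCtrl cells the order of the means was CD44, ALDH1A3, KLF5, ALCAM, SOX9, BMI1, SOX4, PROM1, CD24 and ALDH1A1, and of the neighbors in that order only PROM1 (10.16 to 10.86 TPM) and CD24 (6.86 to 10.6 TPM) overlapped between libraries. In KD cells the order was CD44, ALDH1A3, ALCAM, KLF5, SOX4, SOX9, BMI1, PROM1, CD24 and ALDH1A1, with an overlap only between KLF5 (26.56 to 28.73 TPM) and SOX4 (25.48 to 26.79 TPM). The place of BMI1 depends on how reads are divided with its readthrough gene COMMD3-BMI1, described below. Both entries together had 55.8 ± 1.48 TPM in shCtrl and 38.5 ± 0.387 TPM in KD cells. KLF5 had 53.5 ± 2.35 and 27.9 ± 1.18 TPM. The level of CD44 exceeded that of 97.7% of genes tested in shCtrl cells, and the level of ALDH1A3 exceeded 97.0%. ALDH1A3 stood above 90.1% of genes in KD cells, and CD24 moved from above 47.4% to above 25%.

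Among the surface markers, CD24 fell and CD44 was slightly lower, whereas PROM1 and ALCAM did not pass the test. CD44 (ENSG00000026508, chr11:35138870-35232402, plus strand, 39 annotated transcripts) is the main receptor for the matrix polysaccharide hyaluronan. It had 281.66, 270.68 and 275.9 TPM in shCtrl and 211.11, 211.58 and 210.73 TPM in KD libraries. All KD libraries lay below all shCtrl libraries, and the KD values were within 1 TPM of each other. The log2 fold change of CD44 was -0.14 (95% interval -0.20 to -0.07, adjusted p = 0.00465) and reached -0.39 as deposited. The antisense gene CD44-AS1, whose exons overlap those of CD44, had at most 2.33 TPM. The deposited values sum all CD44 isoforms, and the standard and variant forms were not separated here.

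PROM1 (ENSG00000007062, chr4:15963076-16084378, minus strand) encodes the pentaspan membrane glycoprotein CD133. It had 10.35, 10.16 and 10.86 TPM in shCtrl libraries and 9.74, 7.96 and 9.4 TPM in KD libraries. The KD values were lower in TPM as deposited, with the second KD library lowest. With the scaling, the log2 fold change of PROM1 was 0.03 (95% interval -0.17 to 0.23, adjusted p = 0.795), and as deposited it was -0.20 (adjusted p = 0.0908), so its direction depended on the scaling and no change was called under either.

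ALCAM (ENSG00000170017, chr3:105366909-105576900, plus strand) is an adhesion molecule of the immunoglobulin superfamily. It had 38.71, 37.08 and 36.49 TPM in shCtrl libraries and 30.92, 29.66 and 31.73 TPM in KD libraries. The groups did not overlap in TPM. The log2 fold change of ALCAM was -0.03 (95% interval -0.13 to 0.06, adjusted p = 0.5), while the values as deposited gave -0.27 (adjusted p = 0.00192) and upper-quartile scaling -0.12 (adjusted p = 0.0381). The call for ALCAM was therefore set by the scaling.

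CD24 (ENSG00000272398, chr6:106969831-106975627, minus strand) encodes a small, heavily glycosylated protein held in the membrane by a lipid anchor. It had 7.74, 6.86 and 10.6 TPM in shCtrl libraries and 1.38, 1.83 and 2.02 TPM in KD libraries. Every KD library was well below every shCtrl library, and the third shCtrl library was the highest. The mean fell from 8.40 ± 1.96 to 1.74 ± 0.329 TPM (SD, n = 3), a ratio of 0.208, and the log2 fold change was -1.58 (95% interval -1.99 to -1.16, adjusted p = 0.000304). CD24 was the most changed of the surface markers on every scaling, with -1.76 as deposited, and with a pseudocount of 0.1 in place of 1 its log2 fold change was -1.96.

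Ratios of these genes within a library do not depend on the scaling between libraries. The log2 ratio of CD24 to CD44 was -5.19, -5.30 and -4.70 in shCtrl libraries and -7.26, -6.85 and -6.70 in KD libraries. The KD ratios all lay below the shCtrl ratios, with a difference of -1.88 in the means (exact two-sided permutation test, p = 0.1, adjusted p = 0.133 over 4 ratios). The log2 ratio of ALCAM to CD44 was higher by 0.10 in KD cells (exact permutation p = 0.1) and that of PROM1 to CD44 by 0.17 (exact permutation p = 0.2). With 3 libraries against 3, 0.1 is the smallest p that this test can give, so none of the ratios could pass a threshold of 0.05.

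**Figure D2:**
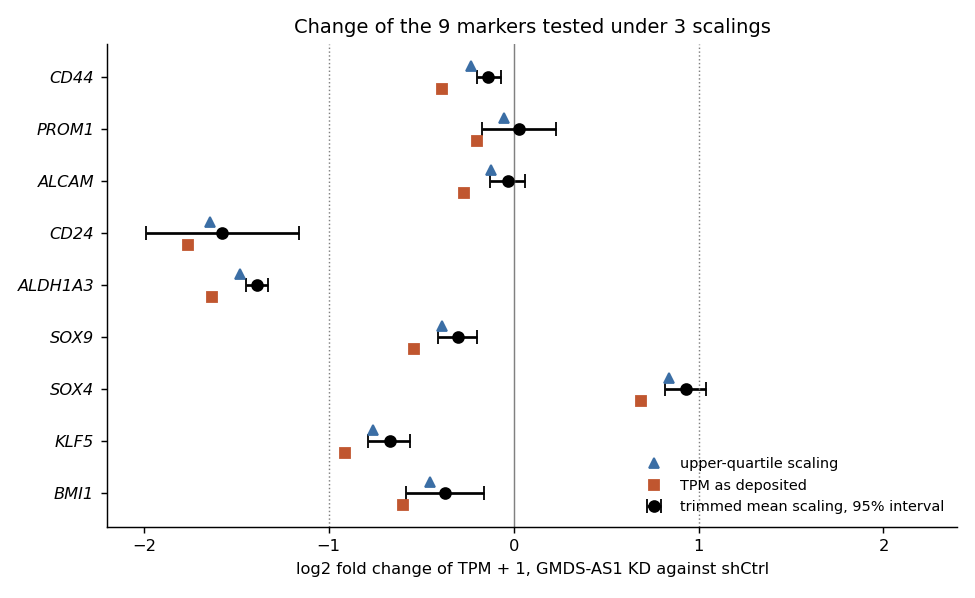
Log2 fold change of TPM + 1 (horizontal axis, GMDS-AS1 KD against shCtrl) for the 9 markers tested; black points are the trimmed mean scaling with 95% intervals, blue triangles upper-quartile scaling and orange squares TPM as deposited, and dotted lines mark a 2-fold change. CD24 and ALDH1A3 lie past the lower dotted line and SOX4 lies above 0 on every scaling, while the points of PROM1 fall on both sides of 0.

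Of the aldehyde dehydrogenase markers, ALDH1A3 carried nearly all of the RNA and fell in KD cells. ALDH1A1 (ENSG00000165092, chr9:72900662-73080442, minus strand) was listed at 0, 0.03 and 0.03 TPM in shCtrl libraries and at 0 in all KD libraries. It was too low to be tested, and no fold change is given. ALDH1A3 (ENSG00000184254, chr15:100877714-100916626, plus strand) had 214.18, 211.31 and 209.99 TPM in shCtrl libraries and 68.68, 66.83 and 67.45 TPM in KD libraries. Both groups were tight and far apart. Its mean fell from 212 ± 2.14 to 67.7 ± 0.942 TPM (SD, n = 3), a ratio of 0.319, with a log2 fold change of -1.39 (SE 0.0257, 95% interval -1.45 to -1.33, adjusted p = 2.4e-07) and -1.63 as deposited. Exons of the unnamed gene ENSG00000259583 overlap ALDH1A3, and it had 8.43 to 9 TPM in shCtrl and 5.50 to 6.90 TPM in KD libraries.

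The other 17 aldehyde dehydrogenase genes gave the family context. Of these, 14 were tested: 10 were lower, 2 were higher and 2 were not called, with a median log2 fold change of -0.49. As deposited, 11 were lower and 2 higher. Of all genes tested, 25.9% were lower and 28.5% higher, or 40.3% and 16.3% as deposited. The counts of the lists below stand beside the same shares. On the scaled log2(TPM + 1) scale, the 3 genes that fell by at least 2-fold were ALDH5A1, ALDH1L2 and ALDH18A1. ALDH18A1, which makes the proline precursor pyrroline-5-carboxylate, fell from 37.2 ± 1.40 to 15.0 ± 0.202 TPM (log2 fold change -1.02, adjusted p = 7.54e-06). ALDH5A1, which oxidizes succinic semialdehyde in the breakdown of GABA, fell from 6.43 ± 0.413 to 1.73 ± 0.284 TPM (-1.26, adjusted p = 0.000119). ALDH1L2, a mitochondrial folate enzyme, fell from 2.49 ± 0.125 to 0.430 ± 0.0721 TPM (-1.16, adjusted p = 0.000106), and it passed the filter on low values only through the shCtrl libraries. ALDH3A1, a detoxifying enzyme of epithelia, fell from 2.11 ± 0.226 to 0.507 ± 0.0945 TPM (-0.92, adjusted p = 0.000543). Its KD libraries alone, at 0.4, 0.58 and 0.54 TPM, would not have passed the filter. The 2 genes called higher were ALDH1B1 and ALDH16A1. ALDH1B1 rose from 19.1 ± 1.44 to 30.8 ± 0.489 TPM (log2 fold change 0.9, adjusted p = 2.19e-05, limma). ALDH16A1 rose from 7.27 ± 0.352 to 8.98 ± 0.231 TPM (0.49, adjusted p = 0.000767, limma).

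ALDH1A3 fell more than the rest of the family taken as a sum. Of the summed TPM of all 19 aldehyde dehydrogenase genes, ALDH1A3 made up 42.4%, 42.9% and 43.4% in shCtrl libraries and 26.3%, 26.1% and 26.0% in KD libraries, a difference of -16.8 percentage points (exact two-sided permutation test, p = 0.1, the smallest possible). The other 18 genes summed to 282 ± 8.73 TPM in shCtrl and 191 ± 1.62 TPM in KD cells (SD, n = 3). This share was computed after the values of the genes had been seen.

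**Figure D3:**
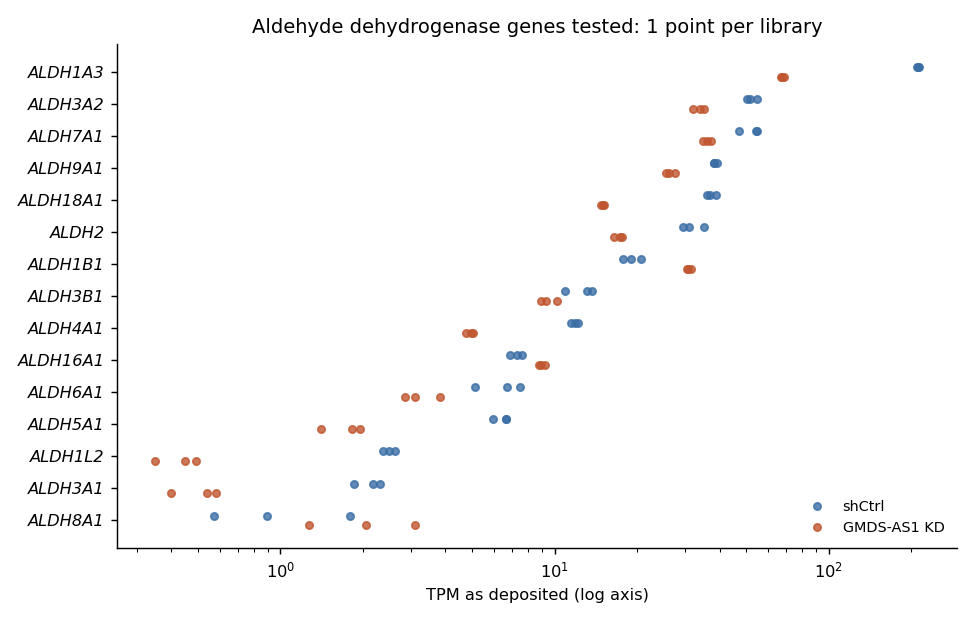
TPM as deposited on a log axis for the 15 aldehyde dehydrogenase genes tested, ordered by their level in shCtrl cells; each point is 1 library, blue for shCtrl and orange for GMDS-AS1 KD. ALDH1A3 is the highest in both groups, at 209.99 to 214.18 TPM in shCtrl and 66.83 to 68.68 TPM in KD libraries.

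The transcription factors moved in both directions. SOX9 (ENSG00000125398, chr17:72121020-72126420, plus strand), a factor of stem and Paneth cells at the crypt base, had 35.02, 34.13 and 35.01 TPM in shCtrl libraries and 24.31, 22.53 and 23.74 TPM in KD libraries. The KD libraries were all lower. Its log2 fold change was -0.30 (95% interval -0.41 to -0.20, adjusted p = 0.000979) and -0.54 as deposited. SOX9-AS1, the antisense gene at that locus, whose exons do not overlap those of SOX9, fell from 1.92 ± 0.326 to 0.683 ± 0.232 TPM (log2 fold change -0.67, adjusted p = 0.00781).

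SOX4 (ENSG00000124766, chr6:21592768-21598619, plus strand) is a single-exon member of another SOX subgroup that is active in progenitor and tumor cells. It had 15.57, 16.52 and 15.57 TPM in shCtrl libraries and 26.79, 25.48 and 26.62 TPM in KD libraries. It was the one marker that was higher in KD cells, in all 3 libraries against all 3. The log2 fold change of SOX4 was 0.93 (95% interval 0.82 to 1.04, adjusted p = 7.07e-06), and it was 0.69 as deposited. The log2 ratio of SOX4 to SOX9 within a library was -1.17, -1.05 and -1.17 in shCtrl cells and 0.14, 0.18 and 0.17 in KD cells. SOX9 was thus the more abundant of the pair in every shCtrl library and SOX4 in every KD library, a difference of 1.29 on the log2 scale (exact permutation p = 0.1, the smallest possible).

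KLF5 (ENSG00000102554, chr13:73054976-73077542, plus strand), a zinc finger factor of proliferating crypt cells, had 50.99, 55.66 and 53.74 TPM in shCtrl libraries and 28.73, 26.56 and 28.46 TPM in KD libraries. No KD library reached the shCtrl range. The mean fell from 53.5 ± 2.35 to 27.9 ± 1.18 TPM (SD, n = 3), a ratio of 0.522, and the log2 fold change was -0.67 (95% interval -0.79 to -0.56, adjusted p = 3.54e-05).

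BMI1 (ENSG00000168283, chr10:22321211-22331484, plus strand) had 25.46, 26.9 and 30.88 TPM in shCtrl libraries and 16.52, 18.12 and 19 TPM in KD libraries. The groups did not overlap, and the spread of the shCtrl libraries was wide. The log2 fold change of BMI1 was -0.37 (SE 0.0892, 95% interval -0.58 to -0.16, adjusted p = 0.0117) and -0.60 as deposited. BMI1 shares exons with the readthrough gene COMMD3-BMI1, and reads can be divided between these entries. COMMD3-BMI1 had 31.85, 28.76 and 23.48 TPM in shCtrl libraries and 21.57, 20.64 and 19.76 TPM in KD libraries, and it was not called (log2 fold change -0.18, adjusted p = 0.191). The shCtrl library with the highest BMI1 value had the lowest COMMD3-BMI1 value, and the reverse. The sum of both entries, added after the values were seen, was 57.31, 55.66 and 54.36 TPM in shCtrl libraries and 38.09, 38.76 and 38.76 TPM in KD libraries. The sum varied less within a group than BMI1 alone and fell with a log2 fold change of -0.28 (SE 0.0346, adjusted p = 0.00053). COMMD3, the upstream gene of the readthrough, rose from 35.8 ± 0.615 to 47.4 ± 4.54 TPM (SD, n = 3; log2 fold change 0.63, adjusted p = 0.000341). Its exons also overlap those of COMMD3-BMI1, so its reads can be divided in the same way.

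Other genes named as stem cell markers, a list of 28, were examined beside the 10. Of these, 20 were tested: 8 were lower, 4 were higher and 8 were not called, with none at least 2-fold on the scaled log2(TPM + 1) scale and a median log2 fold change of -0.16. Leaving out any 1 of the 3 shCtrl libraries left 5 lower, and a filter on a mean of at least 1 TPM left 6. LGR5, the Wnt-dependent marker of crypt base stem cells, had 0.06, 0.04 and 0.02 TPM in shCtrl libraries and 0, 0 and 0.04 TPM in KD libraries, and it was not tested. The pluripotency factors NANOG and SOX2 had at most 0.16 and 0.13 TPM in any library and were not tested either. Among those called, ITGA6, an integrin subunit that binds laminin, fell from 63.1 ± 0.546 to 32.8 ± 0.555 TPM (log2 fold change -0.68, adjusted p = 5.71e-06). L1CAM, a cell adhesion molecule, fell from 18.9 ± 1.13 to 9.52 ± 0.389 TPM (-0.69, adjusted p = 0.000141). ABCG2, the drug efflux pump of side population cells, fell from 2.58 ± 0.523 to 0.723 ± 0.474 TPM (-0.94, adjusted p = 0.0109), and the chemokine receptor CXCR4 from 0.860 ± 0.241 to 0.127 ± 0.0586 TPM (-0.65, adjusted p = 0.00646). CXCR4 and another of the genes called lower passed the filter only through the shCtrl libraries, where both were higher. The KD libraries of ABCG2 alone, at 1.25, 0.59 and 0.33 TPM, would not have passed it either. The 4 genes called higher were PROCR, MSI1, MYC and ZNRF3. PROCR rose from 76.1 ± 3.58 to 99.6 ± 2.9 TPM (log2 fold change 0.63, adjusted p = 2.57e-05, limma). MYC rose from 356 ± 11.1 to 401 ± 4.16 TPM (0.42, adjusted p = 1.5e-05, limma). MSI1 rose by 0.48 and ZNRF3 by 0.36, and ZNRF3 was not called as deposited (0.15). Of 19 genes of intestinal differentiation, only 4 were tested, and 2 of them were lower, or 1 without any single shCtrl library or without KD library 2 or 3. They were CA2, a carbonic anhydrase (44.8 ± 2.51 to 23.0 ± 1.47 TPM, log2 fold change -0.70, adjusted p = 0.000136), and the nuclear receptor HNF4A (4.70 ± 0.216 to 3.14 ± 0.314 TPM, -0.27, adjusted p = 0.0487).

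Genes that act around CD44 changed in both directions. Of 16 genes for hyaluronan synthesis and breakdown, CD44 ligands, proteases, linker proteins and splicing regulators, 13 were tested, with 7 higher, 5 lower and 1 not called and a median log2 fold change of 0.09. As deposited, 6 were higher and 7 lower with a median of -0.15, and with upper-quartile scaling 6 were higher and 6 lower. HAS3, a hyaluronan synthase, fell from 55.2 ± 2.08 to 21.1 ± 3.21 TPM (log2 fold change -1.11, adjusted p = 0.000105). HYAL1, a lysosomal hyaluronidase, rose from 4.19 ± 0.766 to 24.8 ± 1.18 TPM (2.54, adjusted p = 3.41e-06), the greatest change among the genes of all lists considered here. HYAL3, of the same family, rose from 5.15 ± 0.949 to 8.32 ± 0.655 TPM (0.82, adjusted p = 0.00126), although its exons overlap those of IFRD2 and NAA80. RDX, which encodes radixin, a linker between CD44 and actin, rose from 44.4 ± 4.09 to 74.6 ± 5.06 TPM (0.98, adjusted p = 5.34e-05).

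Of 16 polycomb complex 1 genes other than BMI1, all were tested, with 6 lower, 4 higher and 6 not called. Their median log2 fold change was -0.13. As deposited, 11 were lower and 1 was higher, and without shCtrl library 1 or 2 or KD library 2 or 3 the number higher was 1 or 2. RNF2, the ubiquitin ligase of the complex, fell from 31.9 ± 3.76 to 15.8 ± 0.861 TPM (log2 fold change -0.73, adjusted p = 0.000739). PHC1, a polyhomeotic subunit, fell from 16.6 ± 1.47 to 7.85 ± 1.22 TPM (-0.77, adjusted p = 0.00151). CBX6, a chromobox protein of the family that reads methylated histone H3, rose from 15.0 ± 0.671 to 37.8 ± 1.84 TPM (1.52, adjusted p = 1.86e-06).

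Of 16 further SOX genes, 6 were tested, with 2 lower, 1 higher and 3 not called. Without any single shCtrl library 1 was lower, and without KD library 2 there were 2 higher. SOX13 fell from 14.1 ± 0.909 to 6.52 ± 0.486 TPM (log2 fold change -0.78, adjusted p = 0.000236) and SOX6 from 0.673 ± 0.193 to 0.0933 ± 0.0850 TPM (-0.55, adjusted p = 0.0138), and SOX6 passed the filter only through the shCtrl libraries. SOX12, which belongs to the same subgroup as SOX4, had 12.4 ± 0.933 and 14.0 ± 0.788 TPM (0.39, adjusted p = 0.00332), and as deposited it was at 0.16 and not called. Of 12 further KLF genes, all were tested, with 7 lower, 3 higher and 2 not called and a median log2 fold change of -0.37. As deposited, 9 were lower and 1 was higher, and 1 was higher without shCtrl library 1 or 2 or KD library 1. KLF13 fell from 30.5 ± 3.19 to 10.1 ± 0.601 TPM (-1.27, adjusted p = 2.84e-05), KLF2 from 39.1 ± 10.5 to 12.5 ± 1.67 TPM (-1.30, adjusted p = 0.00195) and KLF10 from 78.2 ± 3.23 to 38.9 ± 1.14 TPM (-0.75, adjusted p = 1.13e-05). KLF16 rose from 18.7 ± 1.88 to 38.8 ± 2.55 TPM (1.26, adjusted p = 2.78e-05).

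**Figure D4:**
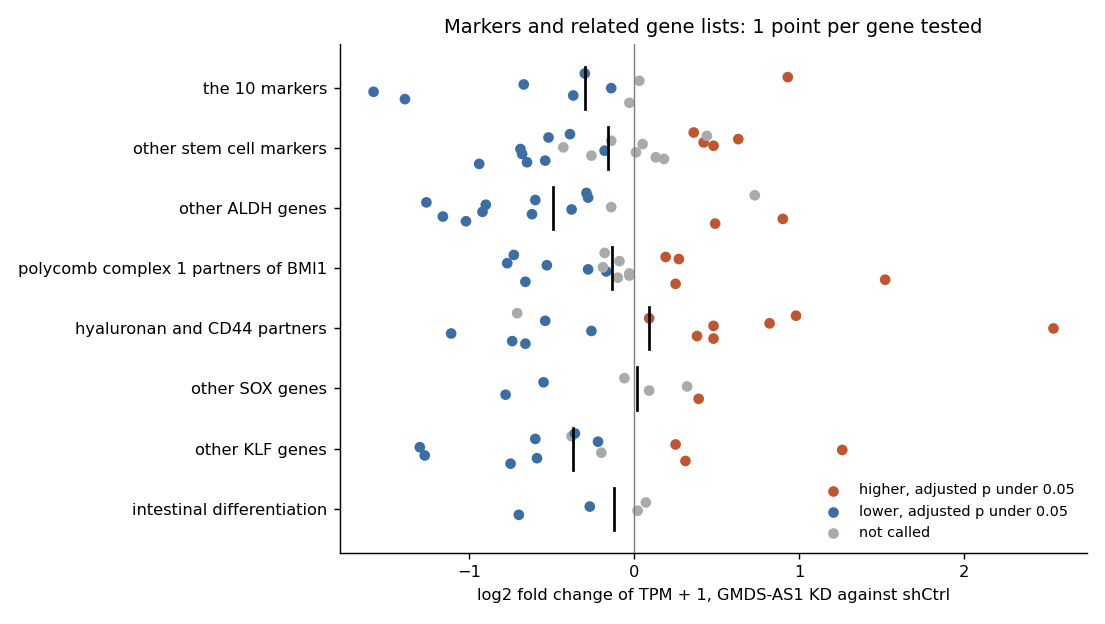
Log2 fold change of TPM + 1 (horizontal axis, GMDS-AS1 KD against shCtrl, trimmed mean scaling) for each gene tested of the 10 markers and 7 related gene lists; 1 point is 1 gene, orange for higher and blue for lower at an adjusted p under 0.05 and gray for not called, and the vertical bar is the median of the list. The medians lie between -0.49 for other ALDH genes and 0.09 for hyaluronan and CD44 partners, beside -0.002 for all genes tested.

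The 3′ UTRs of the markers were searched for AU-rich elements, the class of sequence that the RNA-binding protein HuR (ELAVL1) recognizes. The core pentamer ATTTA was found in 1 transcript each of all 10 genes, and it is common: 67.9% of 12912 genes tested with a 3′ UTR hold it. A longer 3′ UTR holds a given pentamer more easily. Those of the markers ran from 546 bases in ALDH1A1 to 3069 in CD44. All but that of ALDH1A1 were above the median of 1036 bases among these genes. Its density ran from 1.5 per kb in SOX4 to 4.63 per kb in BMI1. It was 1.73 in PROM1, 2.16 in ALDH1A3, 2.28 in CD44, 3.02 in KLF5 and 3.28 in CD24. ALDH1A1 had 3.66, ALCAM 3.67 and SOX9 3.94. The median of all genes was 1.51 per kb. The nonamer TTATTTATT was found in SOX9 and KLF5, and in 8.2% of all genes. Whether these elements relate to the changes in KD cells was not tested. The nonamer holds the pentamer within it. Both sites lie on the plus strand of GRCh38, at chr17:72125498-72125526 for SOX9 and chr13:73077177-73077205 for KLF5, and are shown as the annotated transcripts have them, with the nonamer in capitals.
SOX9: cttgctaaaaTTATTTATTttgtaaggag
KLF5: ttgtttatctTTATTTATTttgtggtaat

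Promoters from RefSeq (GRCh38.p14, 250 bases before to 50 after each start) were available for 9 of the 10 markers. They were searched for the STAT motif TTCNNNGAA and the TCF motifs CTTTGAT and CTTTGAA, on both strands. Among 35116 promoters of that length, 7.66% held the STAT motif, 2.62% CTTTGAT and 4.43% CTTTGAA. The only match in the markers was CTTTGAT in 1 of the 4 promoters of PROM1, at position -179 from the start on the promoter strand (window chr4:16076069-16076368, minus strand), shown with the motif in capitals.
PROM1: agtcatggCTTTGATgccagcac

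A match to these letters is a description and not a binding site, and promoters farther away were not searched.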

How the data were processed

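RNA-seq was made from 6 HCT116 libraries, 3 shCtrl and 3 GMDS-AS1 KD. The authors deposited TPM per Ensembl gene, estimated with Cufflinks and RSEM according to their methods. The submitters' processing notes name Trimmomatic, TopHat2 2.1.1 and GRCh38.p13, without saying which step used which, and the strand setting is not given in the sources used here. TPM gives no counts, so the DESeq2 comparison named by the authors was not repeated. A value was read for 60662 genes, and 2 genes with broken lines were left out.

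TMM factors were computed on TPM without weights, trimming 30% of log ratios and 5% of mean values at each end. Log2(TPM + 1) was modelled in limma 3.58.1 (R 4.3.3) with its trend option and no replicate block, over genes with 0.5 TPM or more in 3 or more libraries. Calls were made at a Benjamini-Hochberg adjusted p under 0.05, and fold changes on this scale understate those of low genes. The fit was tested on simulated data. Ratios were compared by exact two-sided permutation over the libraries in Python 3.11.15 with numpy 2.4.6. Positions and exons came from GENCODE v29 (GRCh38), and promoter sequences came from RefSeq. The gene symbols ALCAM-AS1 and ALDH1A3-AS1 matched no symbol among the deposited values. Motifs in 3′ UTRs were searched on the transcript strand, in 1 coding transcript per gene.

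Named genes were the markers, GMDS-AS1, LGR5, NANOG, SOX2, readthrough and antisense genes of the markers, and at most 4 called genes of each list with the greatest absolute fold change. All genes called higher among the other aldehyde dehydrogenase genes and the other stem cell markers were named in addition to that rule. A few genes that the rule covers are not reported here. The members and lists were chosen with earlier results of these data known. Same-numbered libraries did not deviate together (r of deviations across genes 0.029, -0.038 and 0.014), so the numbers were not taken to pair the samples. Alternatives covered the scaling, pseudocount, filter, variance trend, replicate block and leaving out each library.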

Additional observations from a re-analysis of the deposited data

How the results depend on the processing

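The 7 calls among the markers, 6 lower and 1 higher, were made again under each of the 13 alternatives run (other scalings, pseudocount, filters, no variance trend, a replicate block and leaving out each library). The log2 fold changes ranged from -0.39 to -0.12 for CD44, -1.96 to -1.42 for CD24, -1.63 to -1.37 for ALDH1A3, -0.54 to -0.28 for SOX9, 0.69 to 0.97 for SOX4, -0.91 to -0.64 for KLF5 and -0.6 to -0.3 for BMI1. PROM1 was not called under any alternative, but its sign turned as deposited (-0.2, adjusted p = 0.0908, limma) and with upper-quartile scaling (-0.05). Over the fits that left out 1 library its log2 fold change ran from -0.02 to 0.1, and it was below 0 without shCtrl library 2 (-0.01) and without KD library 1 (-0.02). ALCAM was called lower as deposited (-0.27) and with upper-quartile scaling (-0.12). Without the scaling, the median log2 fold change of all genes tested shifted by -0.19. With the replicate block, 7 markers were called, while GMDS-AS1 was no longer called (adjusted p = 0.0518, limma), and the numbers were not found to pair the libraries. For the related lists and marker lists, 41 combinations of a count and an alternative differed from the reported count by over 1.5 times. The cause was not tested. Limits are the unknown depth, 1 shRNA and 3 libraries per group, with which no exact permutation p below 0.1 is possible.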
